A study of Homo sapiens with 15 samples.

Results

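The 38 protein-coding genes of the 4 human HOX clusters other than HOXB13 were followed here through the chromatin loops of their promoters: 11 genes of HOXA, 9 of HOXB, 9 of HOXC and 9 of HOXD, out of 39 HOX genes and 19894 protein-coding genes in all. A loop belonged to a gene where at least 1 bp of one of its 1 kb anchors lay within 2.5 kb of the annotated start of the gene's canonical transcript, and each pair of anchors was counted once. By this rule the HOX genes had 404 of the 307721 loops that touched any coding promoter, and 505995 loops were deposited in all. LNCaP cells, an androgen-sensitive line grown from a human prostate carcinoma, were kept for 3 days in charcoal-stripped medium, which is poor in steroids, and then received either ethanol vehicle (0 m) or the androgen dihydrotestosterone (DHT) at 10 nM, with harvest 30 m, 4 h, 16 h and lastly 72 h later. HiChIP, which ligates DNA ends that touch in fixed nuclei and enriches, with an antibody, the ligated pieces bearing a histone mark, was done for H3K27ac, a mark of active enhancers and promoters, and for H3K4me3, a mark of promoters. Each time point had 2 labelled H3K27ac samples and 1 H3K4me3 sample, 15 samples in all.

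The values are contacts, a signal that the authors scaled between the time points of a mark, and the marks are not on 1 scale. In the 10 tables a loop had a single value at each time point of each mark, so no comparison below has a replicate error or a test, and whether both H3K27ac replicates entered a value is not stated in the sources used here. Every value was a whole multiple of the value of 1 read pair, and the recovered read pairs gave exact 95% intervals that cover counting error only. All later time points of a mark were compared with the same single 0 m table, so the 4 changes of a mark are not independent of each other. Values given 5 at a time stand in time order, from 0 m to 72 h, and differences given 4 at a time stand in the order of the later time points. The tables held 2475168 to 4308555 read pairs for H3K27ac and 2153262 to 10675614 for H3K4me3, the most at 4 h, of which the HOX loops took 2077 to 2795 and 1256 to 5809. As a check of the cell line, all 8 prostate luminal marker promoters had loops, with KLK3 at percentile 98.8 and FOXA1 at percentile 99.7 of all promoters with loops in H3K27ac, while PTPRC and VWF, markers of blood and endothelial cells, had none. Among the other markers of cells not in the dish, ALB had 2 loops, MYOD1 3 and COL1A1 17.

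HOX genes encode homeodomain transcription factors that give the body axis its regional identity. They lie in clusters in the order of their paralogue numbers, and that order follows where along the axis they are used, low numbers towards the head (anterior) and high numbers towards the tail (posterior). Their promoters are classic targets of Polycomb repression and trithorax activation, enhancers for a cluster often lie in the gene-poor DNA on either side of it, and the posterior genes pattern the urogenital tract, from which the prostate arises. In these data each cluster was taken from the outermost start to the outermost start, with 2.5 kb added. On GRCh37, HOXA was chr7:27133119-27242210 on the minus strand, HOXB without HOXB13 was chr17:46605873-46706220 on the minus strand, HOXC was chr12:54330115-54450119 on the plus strand and HOXD was chr2:176954949-177055896 on the plus strand.

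The 300 bases upstream of the annotated start are shown for HOXA10, the HOXA gene with the most H3K27ac contact below, read from the GRCh37 sequence on the strand of the gene, 5′ to 3′ (chr7:27213940-27214239, minus strand). Capitals mark matches, on either strand, to the GC box GGGCGG bound by SP factors, to the hexamer AGAACA of the androgen receptor element, or to TGATNNAT, a site of PBX-HOX dimers.
HOXA10: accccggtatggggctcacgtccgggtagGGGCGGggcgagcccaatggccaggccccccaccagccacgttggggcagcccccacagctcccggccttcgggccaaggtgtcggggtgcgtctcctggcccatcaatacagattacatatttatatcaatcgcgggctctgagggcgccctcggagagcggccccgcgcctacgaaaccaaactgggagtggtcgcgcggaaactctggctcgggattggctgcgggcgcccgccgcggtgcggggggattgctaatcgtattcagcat
HOXA10 held 1 GC box and no match to the other motifs. Over all 38 genes, the stretch of 300 bases held a GC box at 21 (55.3%) against 60.8% of the 19894 coding promoters, and the androgen receptor hexamer at 4 (10.5%; HOXA9, HOXA11, HOXC5 and HOXC9) against 11.4%. The PBX-HOX letters were present at 8 (21.1%; among them HOXA2, HOXA4, HOXB1, HOXB7, HOXB9, HOXC11 and HOXD11) against 5.51%. The core of the motif of CTCF, the factor that anchors many loops, was found in none of the 38 stretches, against 2.70% of all promoters. In the whole window of 5001 bases it was found at 11 HOX genes (28.9%) against 20.9%. These are matches of letters and not measured binding. The HOX windows had a median GC content of 54.8%, against 49.5% for all coding promoters, and it was 54.6% in the HOX genes with loops and 54.9% in those without.

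Loops were found at 30 of the 38 HOX genes (78.9%) against 81.8% of all coding genes, but HOX genes had fewer of them, a median of 6.5 against 20 over the genes with loops. The 8 genes without a loop were HOXA3, HOXB1, HOXB4, HOXC10, HOXD3, HOXD4, HOXD9 and HOXD11, 4 of them in HOXD. With anchors widened to whole 5 kb bins 5 genes had none, as HOXA3, HOXC10 and HOXD9 then had loops. Over all annotated protein-coding starts 6 had none, as HOXA3 and HOXD3 then had loops. The annotated starts of HOXA3 and HOXB3 lie out of paralogue order, so their windows are not where their numbers would put them. Summed over its loops and averaged over the 5 time points, the contact of a HOX gene with loops had a median of 8.63 in H3K27ac against 20.7 for all promoters with loops, and of 4.53 in H3K4me3 against 37.97. In H3K27ac 9 of the 30 lay above the median of all promoters, and in H3K4me3 3 did. A single HOX gene reached percentile 90 of all promoters in each mark, HOXC9 in H3K27ac at percentile 97.2 and HOXC13 in H3K4me3 at percentile 90.8.

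The clusters differed in how many loops they had and in which set they were called. HOXA had 170 loops, HOXC 146, HOXB 71 and HOXD 17. Of the HOX loops, 47.3% (95% binomial interval 42.3 to 52.3) were called in H3K27ac only, against 21.6% of the loops of other coding promoters, and 31.7% (27.2 to 36.5) in H3K4me3 only, against 59.7%. HOXA had 61.2% (53.4 to 68.5) of its loops in H3K27ac only, HOXB 43.7% (31.9 to 56.0) and HOXC 37.7% (29.8 to 46.1). The interval of HOXB overlaps both of the others. HOXD went the other way, with 15 of its 17 loops (88.2%) in H3K4me3 only. The binomial intervals treat loops as separate, although neighbouring loops share anchors.

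The mean contact per loop was highest in HOXC. In H3K27ac it was 2.11 over the 5 time points in HOXC, 0.996 in HOXA, 0.951 in HOXB and 0.256 in HOXD, against 1.30 for the loops of other coding promoters. In H3K4me3 it was 2.02 in HOXC, 0.639 in HOXB, 0.439 in HOXA and 0.358 in HOXD, against 2.06. By these means HOXC was above other promoters in H3K27ac and close to them in H3K4me3, while the other clusters were below them in both marks. By the median per loop HOXA and HOXB were above other promoters in H3K27ac, with 0.978 in HOXC, 0.629 in HOXA, 0.543 in HOXB and 0.216 in HOXD against 0.484. In H3K4me3 HOXA, HOXB and HOXD were below other promoters by the median too, with 0.215, 0.380 and 0.299 against 0.806, and HOXC had 0.818. HOXD rested on 12 to 28 read pairs per H3K27ac table and 14 to 83 per H3K4me3 table, too few to read a change from.

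**Figure D1:**
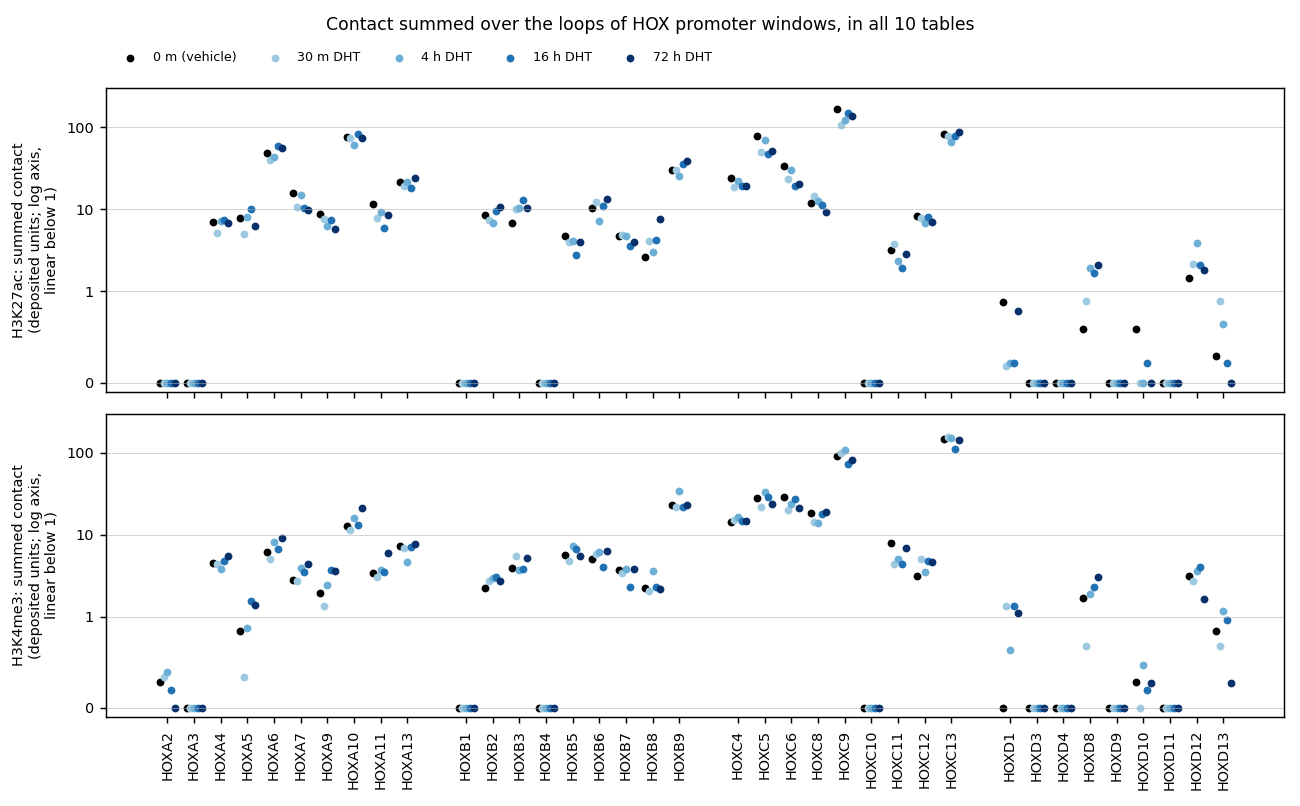
Summed contact of the loops of the HOX genes reported one by one in each of the 10 tables, 1 panel per mark, with genes in cluster order on the horizontal axis and contact on a vertical axis that is linear below 1 and logarithmic above. HOXC9 stands highest in H3K27ac and HOXC13 in H3K4me3, HOXA10 and HOXA6 are high in H3K27ac and low in H3K4me3, and the HOXD genes lie near or below 4.

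Within HOXA, HOXA10 and HOXA6 had much H3K27ac contact and little H3K4me3 contact. HOXA10, a posterior gene known for its part in the uterus and in blood progenitors, had 57 loops, of which the H3K27ac set held 51 and the H3K4me3 set 13. Its summed H3K27ac contact was 75.8, 74.7, 60.3, 82.0 and 74.5 in time order, 43.4% of the cluster's contact. The H3K4me3 contact of HOXA10 was 12.7, 11.3, 16.2, 13.1 and 21.2. These values put HOXA10 at percentile 87.2 of all promoters in H3K27ac and at percentile 33.6 in H3K4me3. HOXA6, a central gene, had the next highest H3K27ac contact of the cluster, at 48.2, 39.6, 43.2, 58.6 and 55.3, and 33 of its 34 loops were in the H3K27ac set.

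The other HOXA genes described were lower in H3K27ac. HOXA13, needed for limb and urogenital development, had 17 loops and an H3K27ac contact of 18.05 to 24.2. HOXA7 and HOXA11 had 16 and 10 loops and at most 15.9 in H3K27ac. HOXA4 had 7 loops, HOXA9, known for its part in myeloid leukaemia, had 3, and HOXA5 and HOXA2 had 1 each. HOXA2's loop had no H3K27ac read pair in any table, and its H3K4me3 contact was 0.396 at most.

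In HOXB a single gene carried about as much contact as the rest together. HOXB9, the most posterior gene of the cluster here, had 39 of the 71 loops, 47.7% of the H3K27ac contact and 54.6% of the H3K4me3 contact. Its H3K27ac contact was 30.3, 30.6, 25.9, 35.9 and 38.4. Its H3K4me3 contact was 22.8, 21.9, 34.5, 21.6 and 23.1, with the 4 h table above the others. HOXB6 had 10 loops, HOXB3 7 and HOXB2 6, and HOXB5, HOXB7 and HOXB8 had 3 to 5. HOXB3's 7 loops were all in the H3K27ac set, while 3 of HOXB5's 3 loops were in the H3K4me3 set.

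In HOXC the contact lay on 2 posterior genes and on the central genes at the other end. HOXC9 had 54 loops and the highest H3K27ac contact of all HOX genes, 169 (95% interval 155 to 183), 108 (99.7 to 117), 123 (113 to 134), 148 (138 to 160) and 138 (127 to 151) in time order. HOXC13, a regulator of hair keratin genes, had the highest H3K4me3 contact, 147 (134 to 160), 157 (143 to 172), 149 (143 to 156), 112 (103 to 121) and 143 (131 to 156). In H3K27ac HOXC13 had 82.3, 78.1, 65.4, 79.2 and 87.6, below HOXC9 in every table, and in H3K4me3 HOXC9 had 89.97, 99.1, 107, 72.5 and 81.9, below HOXC13 in every table. HOXC5 had 26 loops and an H3K27ac contact of 79.3, 49.8, 70.3, 47.8 and 50.8. HOXC6, known to be raised in prostate cancer, had 5 loops with an H3K27ac contact of 33.5, 23.6, 30.1, 19.3 and 20.5, which were few but strong. HOXC4 had 16 loops and 18.9 to 24.1 in H3K27ac, and HOXC8 had 6 loops and 9.21 to 14.8. HOXC12 had 4 loops and HOXC11 had 1. By the 1 kb anchors, therefore, HOXC10 with no loop and 2 genes with 5 between them lay between HOXC9 and HOXC13. With whole 5 kb bins HOXC10 did have loops.

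HOXD stayed near the floor in both marks. HOXD12, which works in limb patterning, had 9 of the 17 loops, with an H3K27ac contact of 1.47, 2.16, 3.85, 2.12 and 1.84 and an H3K4me3 contact of 3.102, 2.73, 3.57, 4.06 and 1.65. HOXD8 had 5 loops, with an H3K27ac contact of 0.588, 0.8997, 1.92, 1.70 and 2.11 from 2 to 9 read pairs. HOXD1 had 2 loops, and HOXD10 and HOXD13 1 each.

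By position, the 8 anterior genes (paralogues 1 to 3) had 49 loops, the 15 central genes (4 to 8) 130 and the 15 posterior genes (9 to 13) 234, with loops between 2 classes counted in both. The mean contact per loop was 0.751 in the anterior, 1.39 in the central and 1.48 in the posterior genes in H3K27ac, and 0.956, 0.812 and 1.19 in H3K4me3.

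**Figure D2:**
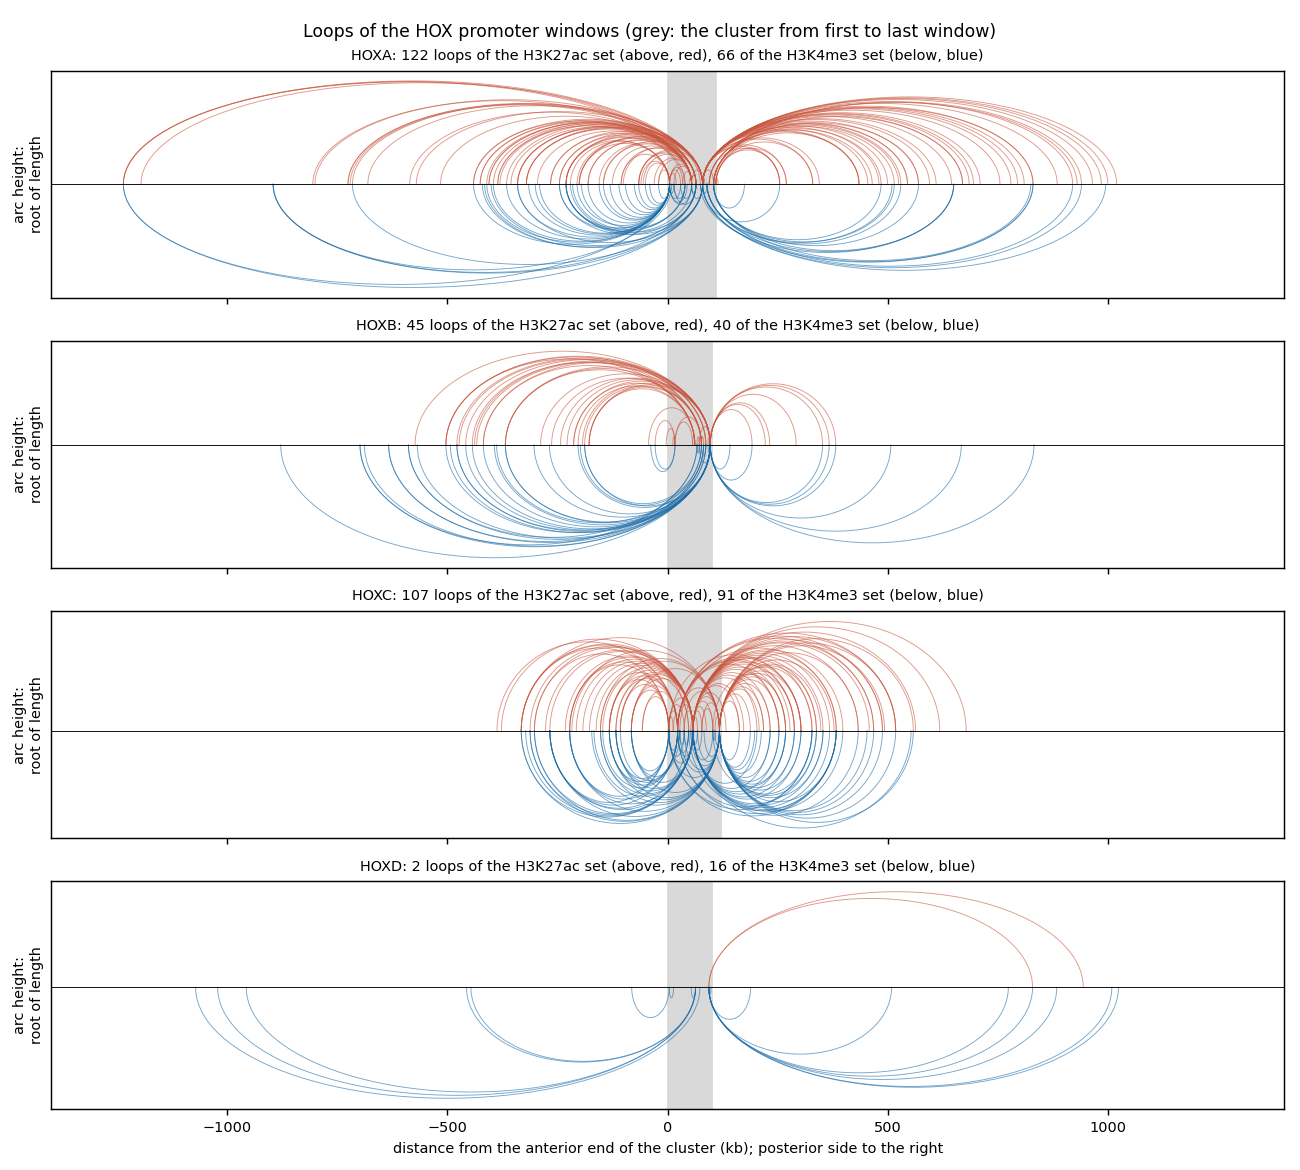
Loops of the HOX genes of the 4 clusters drawn as arcs against the distance in kb from the anterior end of each cluster (posterior to the right), red above the line for the H3K27ac set and blue below it for the H3K4me3 set, with the height of an arc growing with the root of its length and the cluster in grey. HOXB loops run mostly to the anterior side, HOXC loops to both sides, and HOXD has 17 loops in all.

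Most HOX loops left their cluster. Of the 404, 206 (51.0%, 46.0 to 56.0) ended beyond the anterior end, 140 (34.7%, 30.0 to 39.5) beyond the posterior end, 34 (8.42%, 5.90 to 11.6) elsewhere inside the cluster, and 24 (5.94%, 3.84 to 8.71) joined 2 HOX promoters of a cluster. The loops that stayed inside were the strong ones: the 34 that joined a HOX promoter to another place in its cluster held 28.7% of the H3K27ac contact and 34.0% of the H3K4me3 contact, at a median length of 17.5 kb. Contact falls with distance in any such map, and length was not held equal here. HOXB was the most one-sided, with 51 of 71 loops (71.8%, 59.9 to 81.9) beyond the anterior end. In HOXA this share was 55.9% (48.1 to 63.5), and in HOXC it was 36.99% (29.2 to 45.4), below the intervals of both, with 43.8% (35.6 to 52.3) of the HOXC loops beyond the posterior end.

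Within HOXA the side of the loops followed the place of the gene. All loops of HOXA2, HOXA4, HOXA6 and HOXA7 that left the cluster did so on the anterior side, 1, 4, 27 and 14 of them. All loops of HOXA11 and HOXA13 that left it did so on the posterior side, 9 and 16. HOXA10 lay between them, with 21 anterior and 31 posterior loops. HOXB2 to HOXB8 looped out on the anterior side only, 25 loops in all, and HOXB9 had 26 on that side and 11 on the other. HOXC was not split in this way: HOXC4 had 8 anterior and 3 posterior loops, HOXC5 11 and 9, HOXC9 20 and 25, and HOXC13 11 and 24. In HOXD, HOXD8 had 4 anterior loops and none posterior, and HOXD12 had 8 posterior loops and none anterior. Loops called by merging nearby bin pairs keep only a strongest pair, so a gene next to another with a stronger loop may lack its own.

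**Figure D3:**
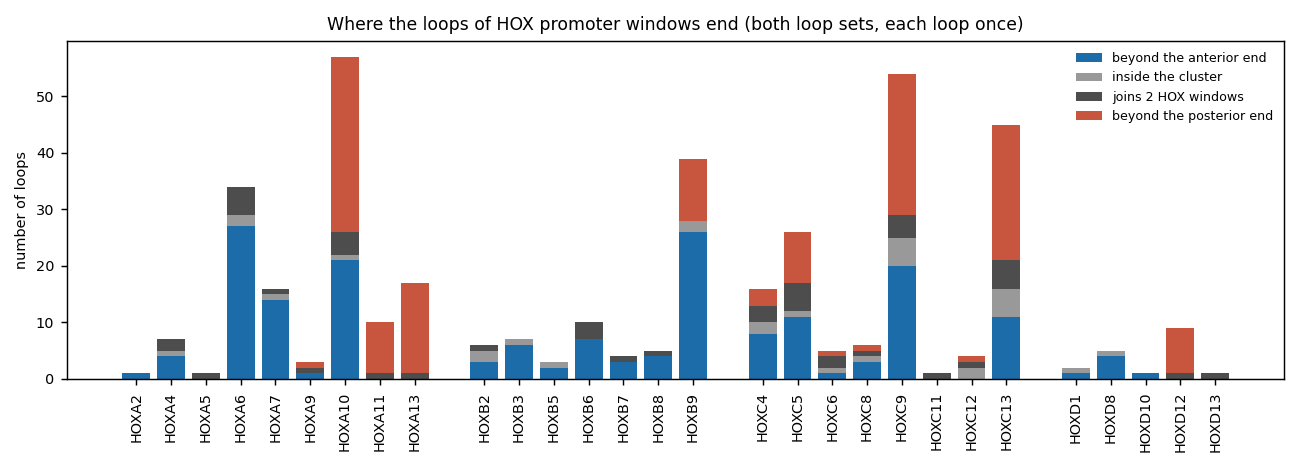
Number of loops of the HOX genes reported one by one, as stacked bars by where the loop ends: beyond the anterior end of the cluster, beyond its posterior end, inside it, or at a second HOX promoter of the cluster. HOXA2 to HOXA7 and HOXB2 to HOXB8 have no bar part beyond the posterior end, HOXA11 and HOXA13 none beyond the anterior end, and HOXA10, HOXB9 and most HOXC genes have both.

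The strongest loops were short. In HOXA it was a loop of 5 kb at HOXA10 (anchors chr7:27212001-27213000 and chr7:27217001-27218000) with an H3K27ac contact of 16.5, 19.97, 16.5, 23.99 and 19.999 from 433 read pairs in all. Loops of 5 kb also joined HOXA5 to HOXA6, with a mean H3K27ac contact of 7.52, and HOXA9 to HOXA10, with 6.77. In HOXB it was a loop of 5 kb at HOXB3, with 3.82, 6.84, 6.41, 10.4 and 7.10, which was most of that gene's H3K27ac contact. In HOXC the highest H3K27ac means were 14.1 for a loop of 5 kb and 13.3 for a loop of 10 kb at HOXC9, and the highest H3K4me3 mean was 21.7 for a loop of 10 kb at HOXC13. HOXC9 and HOXC13 were themselves joined over 60 kb, with a mean contact of 8.22 in H3K27ac and 9.07 in H3K4me3.

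Coding promoters outside the HOX genes were at the other end of 71 loops, so that with the 24 joining loops 95 of 404 (23.5%, 19.5 to 28.0) had a coding promoter at both anchors, against 15.1% of the loops of other coding promoters. The partners with the most H3K27ac contact were unnamed coding genes inside the clusters. The partner of HOXA10 had 19.4, and that shared by HOXC9 and HOXC13 had 17.5. HOXA4, HOXA6 and HOXA10 each had a loop to SKAP2, an adaptor of Src-family kinases, over 270 to 310 kb, with an H3K27ac contact averaged over the time points of 1.48, 3.99 and 1.82. On the other side HOXA9, HOXA10, HOXA11 and HOXA13 each had a loop to TAX1BP1, an autophagy receptor, with 2.37 summed over the 4 loops in H3K27ac and 3.598 in H3K4me3. HOXB9 was joined over 95 kb to PRAC1, a small nuclear protein gene expressed in prostate and distal colon that lies beyond the posterior end. Its H3K27ac contact was 5.58, 4.86, 2.99, 7.01 and 6.32. No loop joined a HOXB gene to HOXB13, which had 9 loops. HOXC4, HOXC5, HOXC9 and HOXC13 each had a loop to SMUG1, a uracil-DNA glycosylase, of which that of HOXC5 was the strongest in both marks, with a mean of 6.22 in H3K27ac and 6.04 in H3K4me3. The same 4 genes had loops to the window shared by CBX5, which encodes a heterochromatin protein, and HNRNPA1, with 4.92 summed in H3K27ac. HOXD12 had single loops to LNPK and ATF2, each under 0.5 in both marks.

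Distal places with no coding promoter were shared by several genes of a cluster. An anchor at chr12:54532001-54533000, beyond the anterior end of HOXC, had loops with HOXC4, HOXC5, HOXC6, HOXC9 and HOXC13, with mean H3K27ac contacts of 3.07, 7.14, 2.68, 2.32 and 1.34. The H3K4me3 means of the same loops were 0.605, 0.705, 1.09, 1.70 and 1.37. An anchor at chr12:54147001-54148000, beyond the posterior end, had its strongest loops with HOXC9 (8.34 in H3K27ac) and HOXC13 (5.79) and weaker ones with HOXC5 (1.10) and HOXC4 (0.753). At each of these places the genes nearer to it in the cluster did not always have the stronger loop, as HOXC4 had a lower H3K27ac contact than HOXC5 at the first although it lies closer. In HOXA, chr7:27067001-27068000 had loops with HOXA6, HOXA7 and HOXA10, and chr7:27387001-27388000 by HOXA10, HOXA11 and HOXA13.

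A large part of the HOXC contact lay outside the canonical windows. HOXC4 and HOXC6 have further protein-coding transcripts that start close together upstream, HOXC4 at position 54410715 of chromosome 12, 36.9 kb from its canonical start, and HOXC6 at 54409681, 12.5 kb from its own. The HOXC4 start had 58 loops within 2.5 kb, of which 53 belonged to no canonical HOX window. Over these 53 loops the summed H3K27ac contact was 106, 88.9, 103, 105 and 83.7. In H3K4me3 it was 146, 153, 156, 172 and 150. Over all 58 loops, the scale on which canonical genes are given, the mean of the 5 tables was 129 in H3K27ac and 202 in H3K4me3, where HOXC13, the highest canonical HOX gene in H3K4me3, had 142 over its 45 loops. The strongest loops of HOXC6 and HOXC8 ended at the bin of this start: a loop of 10 kb at HOXC6 had a mean H3K4me3 contact of 17.3, and a loop of 10 kb at HOXC8 had 14.5. Counted over all annotated protein-coding starts, HOXC had 214 loops in place of 146. The low rank of HOXC4 in the canonical rule, with 14.4 to 16.4 in H3K4me3, therefore describes its canonical start and not the gene.

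H3K27ac contact of HOXC and HOXA was lower after DHT relative to other promoters, while the intervals of HOXB and HOXD included 0. The mean H3K27ac contact of the HOXC loops was 2.49 at 0 m and 1.90, 2.05, 2.07 and 2.06 later, on 1238 read pairs at 0 m. On the log2 scale the difference from 0 m was -0.39 (95% interval -0.50 to -0.28), -0.28 (-0.39 to -0.17), -0.27 (-0.38 to -0.16) and -0.28 (-0.39 to -0.16). Without HOXC9 the difference at 30 m was -0.23. The loops of other coding promoters were at 0.28, 0.03, 0.28 and 0.25, and with libraries scaled to equal totals at 0.19, -0.04, 0.03 and 0.08. Against them HOXC was lower by a log2 odds ratio of -0.67 (-0.78 to -0.56), -0.31 (-0.42 to -0.20), -0.55 (-0.66 to -0.44) and -0.52 (-0.64 to -0.41). All 4 differences share the 0 m table, and a 0 m value that was high for other reasons cannot be told apart from a change with time.

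HOXA was lower relative to other promoters as well, at -0.49 (-0.64 to -0.34), -0.24 (-0.40 to -0.08), -0.31 (-0.46 to -0.16) and -0.32 (-0.48 to -0.16), with a mean contact of 1.07 at 0 m and 0.924, 0.923, 1.05 and 1.02 later. The log2 difference from 0 m was -0.21 (-0.36 to -0.06) at 30 m and -0.21 (-0.37 to -0.05) at 4 h, and its intervals at 16 h and 72 h included 0. In HOXB the mean H3K27ac contact was 0.865 at 0 m and 0.925, 0.807, 1.04 and 1.12 later. Its log2 difference from 0 m was 0.10 (-0.15 to 0.35), -0.10 (-0.37 to 0.17), 0.27 (0.02 to 0.53) and 0.37 (0.11 to 0.63), the last 2 being 0.02 and 0.20 with equal totals. Against other promoters all 4 of its intervals included 0. Set against HOXC directly, HOXB was higher by 0.49 (0.22 to 0.77) at 30 m, 0.54 (0.26 to 0.82) at 16 h and 0.64 (0.36 to 0.93) at 72 h in log2 odds ratio, and at 4 h the value was 0.18 (-0.11 to 0.47). The intervals of 13 of the 48 such cluster pairs excluded 0, 9 of the 24 in H3K27ac and 4 of the 24 in H3K4me3. Of these 13 pairs 2 set HOXC below HOXD, by -1.04 (-2.16 to -0.01) in H3K27ac at 4 h and by -0.89 (-1.79 to -0.05) in H3K4me3 at 16 h, where HOXD held 28 and 41 read pairs. The HOXD intervals of the difference from 0 m, and of that against other promoters, included 0 in both marks.

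**Figure D4:**
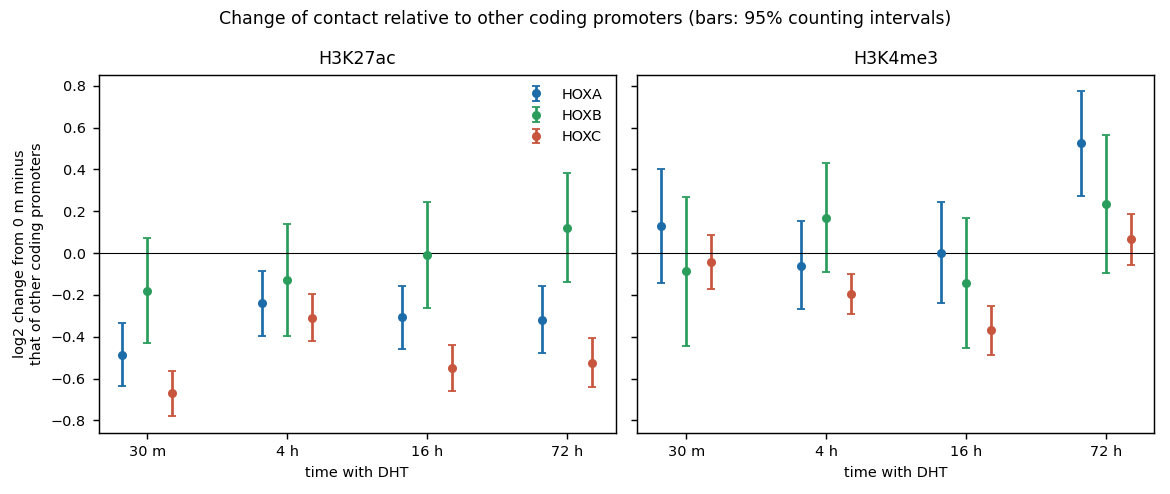
Log2 change of contact from 0 m, less that of other coding promoters, for the HOXA, HOXB and HOXC loops at each time point, 1 panel per mark, with bars for the 95% intervals that cover counting error only. In H3K27ac all HOXA and HOXC points lie below 0 with their bars and the HOXB bars cross 0, while in H3K4me3 the points lie on both sides of 0.

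In H3K4me3 the clusters did not move together. HOXC was lower at 16 h, with a mean contact of 1.76 against 2.09 at 0 m, a log2 difference of -0.25 (-0.37 to -0.13) and of -0.37 (-0.49 to -0.25) against other promoters. Over all annotated starts this log2 difference was -0.07. It was lower by -0.20 (-0.29 to -0.10) against them at 4 h, where their own level was higher by 0.26. HOXA was higher at 72 h, 0.4996 against 0.388, a log2 difference of 0.36 (0.11 to 0.62) and of 0.52 (0.27 to 0.78) against other promoters. HOXB was higher at 4 h, 0.803 against 0.596, a log2 difference of 0.43 (0.18 to 0.69), but against other promoters this was 0.17 (-0.09 to 0.43). The log2 difference was 0.21 without HOXB9 and 0.21 with equal totals. The 4 h table of H3K4me3 was also the deepest, and the part of its depth in these values was not tested.

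The genes were also compared by position in the cluster. In H3K27ac the central genes were lower than other promoters by -0.63, -0.15, -0.56 and -0.52 in log2 odds ratio at the 4 time points, and the posterior genes by -0.56, -0.35, -0.37 and -0.32. The 4 anterior values, from -0.20 to -0.05, had intervals that included 0, but HOXC has no anterior gene and the anterior read pairs come from HOXA, HOXB and HOXD, so that position and cluster cannot be told apart in these pooled values. Within HOXC the central genes were lower than at 0 m by -0.38, -0.11, -0.52 and -0.53 on the log2 scale and the posterior genes by -0.42, -0.39, -0.16 and -0.16. The interval of the central genes at 4 h included 0 (-0.29 to 0.08). Against other promoters the central genes of HOXC were at -0.66, -0.14, -0.81 and -0.78 and the posterior genes at -0.70, -0.42, -0.44 and -0.41, with an interval of -0.32 to 0.05 for the central genes at 4 h. In H3K4me3 values lay on both sides of other promoters. The anterior genes were above them at 30 m, by 0.41 (0.07 to 0.74), and at 72 h, by 0.41 (0.08 to 0.74), on 141 read pairs at 0 m. The central genes were below them at 30 m, by -0.39 (-0.62 to -0.16), and at 4 h, by -0.24 (-0.40 to -0.08). The posterior genes were below them at 4 h, by -0.12 (-0.22 to -0.01), and at 16 h, by -0.38 (-0.50 to -0.26), and above them at 72 h, by 0.16 (0.03 to 0.29). The other 5 intervals included 0. At 0 m 119 of the 141 anterior read pairs were of HOXA, and 298 of the 397 central ones were of HOXC. At 72 h the central and posterior genes of HOXA were above other promoters too, by 0.58 and 0.70. At 30 m they were at -0.26 and -0.15, with intervals that included 0. Position and cluster therefore cannot be told apart in the pooled H3K4me3 values either.

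Single genes were called higher or lower where their summed contact differed from 0 m at least 1.5-fold with at least 50 read pairs at both time points together. In H3K27ac 20 HOX genes had enough read pairs. At 30 m 3 of the 20 were lower, HOXA5, HOXC5 and HOXC9, where 3.21% of all promoters were called lower, and none was higher, where 18.8% of all were. At 4 h HOXB3 was called higher (3.71% of all promoters) and none lower (1.07%). At 16 h HOXA7, HOXA11, HOXC5 and HOXC6 were lower (7.96%) and HOXB3 higher (18.5%). At 72 h HOXA7, HOXA9, HOXC5 and HOXC6 were lower (5.81%) and HOXB3 was higher (17.9%). The 20 genes were 9 of HOXA, 4 of HOXB and 7 of HOXC, with none of HOXD. With libraries scaled to equal totals 4 were lower at 16 h, where 17.2% of all promoters were, and 5 at 72 h, where 10.6% were, so that the count at 16 h was then near that of all promoters. The median log2 change of the HOX genes was -0.20, -0.20, -0.06 and -0.21 at the 4 time points, where that of all promoters was 0.27, 0.04, 0.16 and 0.17. Promoters with a GC content in the range of the HOX genes (50.4% to 60.4%) had medians of 0.36, 0.10, 0.18 and 0.17.

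The HOXC genes with many read pairs differed in their time course. HOXC9 was at its lowest at 30 m, a log2 difference of -0.64 (-0.81 to -0.47), and then at -0.45 (-0.62 to -0.28), -0.18 (-0.35 to -0.02) and -0.29 (-0.46 to -0.11). HOXC5 was lower at 30 m by -0.67 (-0.92 to -0.42), near its level of 0 m at 4 h by -0.17 (-0.41 to 0.06), and lower again at 16 h and 72 h, by -0.73 (-0.99 to -0.47) and -0.64 (-0.92 to -0.37). HOXC6 was also nearest to its level of 0 m at 4 h, with -0.51 (-0.88 to -0.13), -0.15 (-0.52 to 0.22), -0.79 (-1.21 to -0.38) and -0.71 (-1.14 to -0.28). It shares with HOXC5 a loop of 5 kb, so the values of these genes are not separate, and the H3K27ac contact of that loop was 14.7, 6.66, 12.0, 7.01 and 10.3. The start of HOXC4 farther upstream was lower at 72 h, by -0.31 (-0.50 to -0.12) over its 58 loops and by -0.35 (-0.57 to -0.12) over the 53 outside canonical windows. At 30 m it was at -0.17 (-0.34 to 0.01) over the 58 and at -0.26 (-0.46 to -0.06) over the 53. HOXC13 had intervals that included 0 at 30 m, 16 h and 72 h and was at -0.33 (-0.57 to -0.09) at 4 h. Against other promoters HOXC13 was at -0.35 (-0.57 to -0.13) at 30 m and -0.34 (-0.56 to -0.11) at 16 h, and the interval at 72 h included 0.

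**Figure D5:**
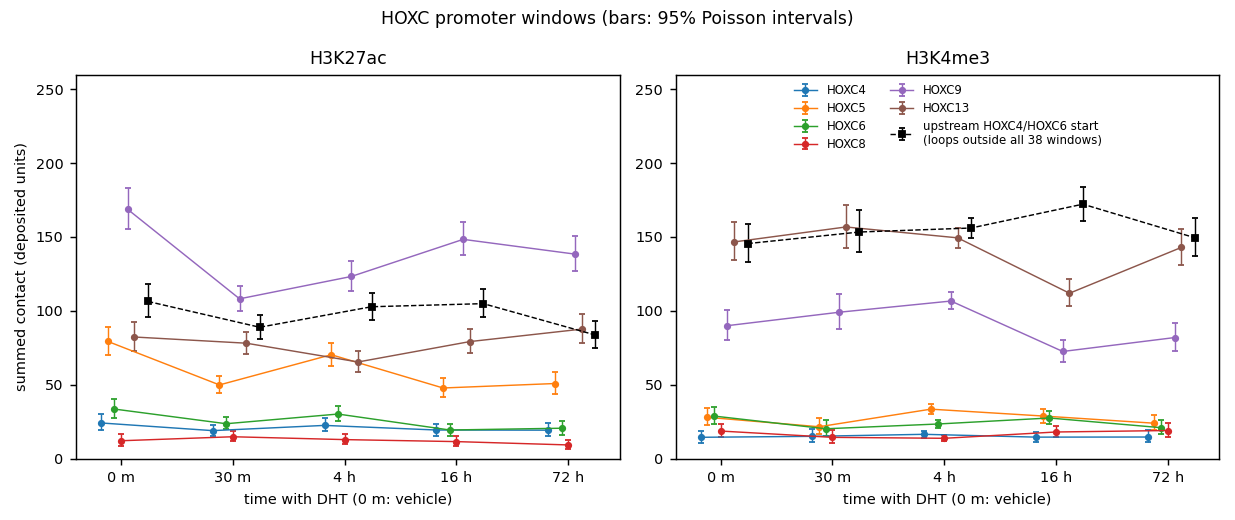
Summed contact of the loops of HOXC4, HOXC5, HOXC6, HOXC8, HOXC9 and HOXC13 and of the 53 loops of the upstream start of HOXC4 and HOXC6 that lie outside all canonical windows, at the 5 time points, 1 panel per mark, with 95% Poisson intervals as bars. In H3K27ac HOXC9 goes from 169 at 0 m to 108 at 30 m and HOXC5 from 79.3 to 49.8, while in H3K4me3 HOXC13 stands at 112 at 16 h and between 143 and 157 in the other tables.

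Outside HOXC the called genes rested on fewer read pairs. HOXA11, which works in uterus and limb, had an H3K27ac contact of 11.8, 7.92, 9.19, 5.94 and 8.42 and was at -0.98 (-1.73 to -0.25) at 16 h. HOXA7 had 15.9, 10.6, 15.2, 10.4 and 9.74, at -0.61 (-1.20 to -0.02) at 16 h and -0.70 (-1.35 to -0.07) at 72 h. HOXB3 had 6.76, 10.1, 10.5, 13.2 and 10.3, with 23 read pairs at 0 m, and was at 0.63 (-0.11 to 1.41) at 4 h, 0.96 (0.25 to 1.72) at 16 h and 0.60 (-0.18 to 1.41) at 72 h. Against other promoters its value at 16 h was 0.68 (-0.03 to 1.44). With libraries scaled to equal totals it was no longer called at 4 h and 72 h. The intervals of these 2 calls from 0 m included 0. Another HOXB3 start, at position 46659984 of chromosome 17, had 17 loops with 42 read pairs at 0 m. It was at 1.01 (0.49 to 1.55) at 16 h and 1.06 (0.53 to 1.62) at 72 h. Against other promoters these values were 0.73 (0.21 to 1.27) and 0.81 (0.28 to 1.37), and the intervals at 30 m and 4 h included 0. HOXA5 at 30 m, at -0.66 (-1.47 to 0.16), and HOXA9 at 72 h, at -0.61 (-1.47 to 0.24), also passed the fold with intervals from 0 m that included 0. Against other promoters HOXA5 was at -0.93 (-1.75 to -0.11) and HOXA9 at -0.86 (-1.72 to -0.01).

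In H3K4me3 fewer HOX genes had enough read pairs, 9, 22, 13 and 12 at the later time points in order. None was called at 30 m, where 0.872% of all promoters were higher and 1.42% lower. At 4 h HOXB8 and HOXB9 were higher (14.7% of all promoters) and HOXA13 and HOXC11 lower (2.65%), at 16 h HOXC11 was lower (0.519%) and none higher (3.91%), and at 72 h HOXA10 was higher (1.39%) and none lower (6.03%). HOXB9 at 4 h was at 0.59 (0.25 to 0.95) and HOXA10 at 72 h at 0.74 (0.19 to 1.30), while against other promoters they were at 0.33 (-0.02 to 0.69) and 0.90 (0.35 to 1.46). With equal totals no HOX gene was called higher at 4 h. Without reference to other promoters, the intervals of HOXB8 at 4 h, HOXA13 at 4 h and HOXC11 at 4 h and 16 h included 0. HOXC13 and HOXC9 were both lower at 16 h without passing the fold, at -0.39 (-0.56 to -0.22) and -0.31 (-0.53 to -0.09). The upstream HOXC4 start was there at 0.14 (0.01 to 0.28) over its 58 loops, but at 0.02 (-0.11 to 0.16) against other promoters.

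All promoters with loops had a median of 20 loops and of 20.7 in summed H3K27ac and 37.97 in summed H3K4me3 contact, beside which the genes that work with or on HOX genes are given. All 9 genes of the TALE cofactors PBX, MEIS and PKNOX, which bind DNA together with HOX proteins, had loops, a median of 28, and a median summed H3K27ac contact of 36.1, the highest being PKNOX2 with 210. In H3K27ac 6 of the 9 had enough read pairs, of which 1 was called higher at 16 h (18.5% of all promoters) and none was called at the other time points, and in H3K4me3 at 4 h 4 of 8 were higher (14.7%) and 1 lower (2.65%). All 15 Polycomb and trithorax regulators had loops, a median of 30, with a median contact of 38.3 in H3K27ac and 72.1 in H3K4me3. In H3K27ac, with the share of all promoters in parentheses, 3 of the 15 were called higher (18.8%) and 1 lower (3.21%) at 30 m, 1 higher (3.71%) at 4 h, 1 higher (18.5%) and 1 lower (7.96%) at 16 h, and 2 higher (17.9%) and 2 lower (5.81%) at 72 h. In H3K4me3 1 of these regulators was higher at 4 h (14.7%) and 4 were lower at 72 h (6.03%). Of the 10 neighbours of the clusters 8 had loops, EVX1 and SKAP1 having none, and 6 had enough read pairs in H3K27ac, of which 1 was called higher at 16 h (18.5%), with median log2 changes of 0.01, -0.07, 0.08 and 0.09 where the HOX genes had the negative medians given above. In H3K4me3 at 4 h 4 of 7 neighbours were higher, where 14.7% of all promoters were.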

How the data were processed

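HiChIP of H3K27ac and H3K4me3 in LNCaP cells was processed by the authors with Trim Galore 0.5.0, HiC-Pro 3.1.0 and Bowtie2 on hg19. They called loops in 5 kb bins with FitHiChIP on the merged reads of all time points of a mark. The deposited values are a contact signal that the authors counted with Cooler and scaled by TMM between the time points of a mark. The 10 tables, 5 per mark, all listed the 296326 loops called for H3K27ac and then the 278491 called for H3K4me3.

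Values were whole multiples of a step in 100% of cases in every library (tolerance 0.001 read pairs), and the step was 0.180 to 0.294 in H3K27ac and 0.0792 to 0.342 in H3K4me3. Read pairs were recovered by dividing by it, and totals per table were set beside the results. Starts were taken from Gencode release 44 lifted to GRCh37. Levels have exact Poisson intervals, differences from 0 m have exact conditional intervals of the ratio of read pairs, and the odds ratio takes other coding promoters as fixed. All intervals are at 95% and cover counting error only. No test was run, as there was 1 value per mark and time point. The promoter sequence and motif matches were read from the GRCh37 genome, and all 38 genes were found in it. Scripts ran under Python 3.11.15 (scipy 1.17.1, pandas 2.3.3, numpy 2.4.6) and were tested on simulated data.

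The genes named were the 2 with the highest contact and the lowest in each cluster and mark, all called by fold and all without loops, the 3 strongest loops of each cluster and mark, and their partners with the 3 strongest outside partners. Starts other than the canonical ones, sides of single genes and shared distal anchors were chosen after their values were seen. Members and lists were chosen with earlier results of these data known. The alternatives varied the scaling, anchor width, loop set, loop length, starts, weight of genes, position classes and call thresholds. Reads were not used here, and 1 HOXA gene, some promoter sequences and 1 marker gene are not reported here, although cluster and position totals include that HOXA gene.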

Additional observations from a re-analysis of the deposited data

How the results depend on the processing

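No paired analysis was possible because the tables carry no replicate number, and no replicate could be left out. Over 441 alternatives to 92 results, 371 were labelled as unmoved, 69 as moved and 1 as turned in direction. A change was labelled as unmoved where it stayed within the 95% counting interval of the main result, so it could still differ. The wide HOXD intervals made this label easy to reach. Of the moves, 24 fell among the 40 alternatives of mean contact and 24 among the 48 of called genes. No cluster change was labelled as turned, although some changed sign, as given below. Leaving out the gene with the most read pairs was added after seeing the data. Scaling each library to the same total shifted all changes by -0.09, -0.07, -0.25 and -0.17 in H3K27ac and by -0.02, -0.22, -0.14 and 0.13 in H3K4me3 at 30 m, 4 h, 16 h and 72 h on the log2 scale. Depth limited the HOXD cluster and single genes under 50 read pairs, and the cause of the moves beyond this shift was not tested.

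Mean contact changed with the choice of loops. With loops of at least 20 kb it was 0.729 in H3K27ac and 0.359 in H3K4me3 for HOXA, 0.648 and 0.424 for HOXB, 1.65 and 1.57 for HOXC, and 0.279 in H3K4me3 for HOXD. With only the loops of the same mark it was 1.15 and 0.770 for HOXA, 1.315 and 0.804 for HOXB, 2.26 and 2.64 for HOXC, and 0.395 in H3K27ac for HOXD. With equal weight per gene it was 1.70 and 0.541 for HOXA, 1.15 and 0.804 for HOXB, 2.46 and 2.65 for HOXC, and 0.441 in H3K4me3 for HOXD. With whole bins it was 0.844 in H3K27ac for HOXB, and with all starts 1.99 and 2.15 for HOXC.

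With equal totals the log2 changes of HOXA were -0.27 at 16 h and -0.24 at 72 h in H3K27ac and -0.019 at 4 h in H3K4me3. Those of HOXC were -0.52 at 16 h and -0.45 at 72 h in H3K27ac, and -0.16 at 4 h, -0.39 at 16 h and 0.031 at 72 h in H3K4me3. Those of the central genes were -0.52 at 16 h and -0.44 at 72 h in H3K27ac and -0.20 at 4 h in H3K4me3, and those of the posterior genes were -0.33 at 16 h and -0.25 at 72 h in H3K27ac and -0.40 at 16 h in H3K4me3. The posterior genes at 4 h in H3K4me3 turned from 0.15 to -0.074. Without HOXC9, HOXC was at -0.23 at 30 m in H3K27ac. With equal weight per gene HOXC was at -0.16 at 30 m and -0.068 at 16 h in H3K4me3, and with all starts it was at -0.073 at 16 h. With loops of at least 20 kb the central genes were at 0.26 at 4 h in H3K4me3, and with loops of the same mark HOXD was at -1.16 at 72 h in H3K27ac. In the main results HOXA at 4 h, HOXC at 72 h and the central genes at 4 h were at 0.20, -0.096 and 0.024 in H3K4me3. HOXD was at 0.43 at 72 h in H3K27ac. These values therefore changed sign too, under equal totals or with loops of the same mark, and their main intervals included 0. The lower H3K27ac contact of HOXC kept its sign in all alternatives.

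At 2-fold, 0 HOX genes were called in either mark at each time point that had calls, where 0.032% to 4.36% of all promoters were. Shares of all promoters called under the same setting stand in parentheses. With equal totals 6 genes were lower at 30 m (4.7%) and 0 higher at 4 h (2.57%) and 72 h (9.3%) in H3K27ac, and 0 were higher at 4 h (5.86%) and 2 at 72 h (2.78%) in H3K4me3. With 20 read pairs 1 gene was higher at 30 m (18.7%) and 2 each at 4 h (5.85%), 16 h (17.7%) and 72 h (17.4%) in H3K27ac. At 16 h HOXB5 and HOXC11 were then lower as well (10.8% lower of all promoters). In H3K4me3 1 was then higher (1.94%) and 1 lower (3.1%) at 30 m, 2 higher (5.87%) and 2 lower (1.39%) at 16 h, and 5 higher at 72 h (3.51%).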

Other observations

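The clusters also hold starts of long non-coding RNA genes, which were not part of the comparisons above. Of 24 such genes that start inside the 4 clusters 20 had loops within 2.5 kb of their start, but 9 had a loop of their own, in no canonical HOX window. Most of their contact thus cannot be told apart from that of a coding neighbour. HOXC-AS1 and HOXC-AS2 had the same 54 loops as HOXC9, and HOXC13-AS the same 45 as HOXC13. HOTAIR, a non-coding RNA known for its link to Polycomb, had 1 loop, which was that of HOXC11. The own loops with the most contact among named genes were the 8 of HOXB-AS2, with a summed contact of 12.8 in H3K27ac and 3.59 in H3K4me3, and the 4 of HOXA-AS2, with 5.53 and 1.93. The window of HOXB-AS2 overlaps that of a HOXB3 start other than the canonical one, at position 46633883 of chromosome 17. Part of its contact therefore cannot be told apart from that of HOXB3. A pair of unnamed non-coding genes shares the upstream start region of HOXC4 and HOXC6 and all 53 of its loops outside the canonical windows.

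In H3K27ac, a HOXB3 start other than the canonical one, at position 46659984 of chromosome 17, had 15 loops in no canonical HOX window with a mean summed contact of 11.6, above that of the canonical start of each HOXB gene other than HOXB9. An unnamed non-coding gene that starts close by has the same 15 loops, so that their contact cannot be told apart.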
